A study of Mus musculus with 16 samples.

Results

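The variable chain of the T cell receptor (TCR) alpha is built from 1 TRAV and 1 TRAJ gene segment, and the data described here are the segments read in Th2 cells of helminth infected mice. A segment was counted when it was named on a productive TRA contig of a cell that held both a productive TRA and a productive TRB contig, once per clone and once per cell, where a clone is the set of cells of 1 mouse with the same V, the same J and the same CDR3 bases on every chain. By that rule 91 TRAV and 43 TRAJ segments were in use, 134 in all, of 128 TRAV and 60 TRAJ segments in the annotation and of 31053 genes in the RNA matrices of the series. They came from 4714 cells and 3927 clones.

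The cells were CD4+IL-4eGFP+ T cells sorted from the perfused lung and the mesenteric lymph node (MLN) of 2 female 4get/C57BL/6 mice of 13 weeks, on day 10 after infection with *Nippostrongylus brasiliensis* (Nb), a nematode whose larvae pass through the lung before the adults settle in the gut. 4get mice carry an eGFP reporter in the IL-4 gene, so the sort took cells in which that locus had been transcribed, and other cells with an open IL-4 locus, such as NKT cells, could pass it. There was no uninfected mouse and no eGFP- cell among the TCR libraries, so no segment can be set against a naive repertoire here. Each organ of each mouse gave a 5-prime RNA library and a TCR library from the same droplets, and the design allows the comparison of organs and of expanded with single clones, each with n = 2 mice.

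The alpha locus has a peculiar order. The V segments lie upstream and the J segments downstream of the constant delta gene, the first joins of a thymocyte usually take neighbouring V and J ends, and later joins on the same allele replace the first with V segments further upstream and J segments further downstream. Pairs of segments are therefore known to follow position. Separate from this, 2 alpha chains with defined segments, TRAV11 with TRAJ18 of invariant NKT cells and TRAV1 with TRAJ33 of MAIT cells, are known for cells that see lipids or vitamin metabolites. CDR3 is the stretch across the V to J join and the part of the chain that mostly touches the peptide.

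In the libraries, lung 1 held 1082 cells in 885 clones, lung 2 held 416 cells in 375 clones, MLN 1 held 2462 cells in 2080 clones and MLN 2 held 754 cells in 713 clones. The precision of a share was thus lowest for lung 2, which had the fewest clones, and highest for MLN 1. The median TRA contig rested on 4 UMIs in both lungs, on 7 in MLN 1 and on 6 in MLN 2, and contigs of a single UMI made up 8.08% and 12.3% of lung and 4.09% and 5.31% of MLN contigs. More than 1 TRA was read in 13% and 8.89% of lung cells and in 17.3% and 14.6% of MLN cells. Clones with 2 or more cells over both organs are called expanded, and there were 454 of 2860 clones in mouse 1 and 83 of 1067 in mouse 2. The organs of a mouse are not independent, since 105 clones of mouse 1 and 21 of mouse 2 were found in both. The clone rule can also split a cell family when a chain is missed, as 19.8% and 22.5% of the clones of the mice shared a TRB with another clone of the same mouse. The sorted cells were T cells by their transcripts: summed CD4 T cell markers stood at 2464 and 2368 CPM (UMIs of a gene scaled to the total UMIs of the library) in lung and at 2863 and 2843 CPM in MLN. Most of these sums was Cd3e and Cd3g, which all T cells share. Cd4 itself stood at 283 and 257 CPM in lung and at 299 and 298 CPM in MLN. The B cell marker Ms4a1 was at 0 in every library and Cd79a at 0.353 CPM or less. Of the CD8 T cell markers Cd8a was at 0 except for 0.413 CPM in MLN 1, and Cd8b1 stood at 10.1 and 11.4 CPM in lung and at 8.75 and 6.25 CPM in MLN. Summed myeloid markers stood at 129 and 123 CPM in lung and at 115 and 116 CPM in MLN, nearly all of it Cst3, while Lyz2 was at 0 in both lungs and at 15.2 and 9.38 CPM in MLN. The part of these transcripts in the segment values was not tested. Between libraries, 13 cell barcodes were found in more than 1, none of them with the same receptor.

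Sequences of the chains that carry the findings below are given first, 5′ to 3′, as read from the contigs from the first to the last codon of CDR3. The capitals mark bases that match neither the germline V end nor the germline J start, and so were added at the join or cannot be placed. The first pair are the most common TRAV11 with TRAJ18 chains, shown since TRAV11 was the one segment called between expanded and single clones. The next 5 recurred with different TRB partners or filled large clones. The last 3 are the alpha chains of the largest clone of each mouse, of which that of mouse 1 carried both TRAV21-DV12 with TRAJ48 and TRAV6-7-DV9 with TRAJ34.
TRAV11 with TRAJ18, 30 cells: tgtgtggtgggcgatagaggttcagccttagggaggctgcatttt
TRAV11 with TRAJ18, 22 cells: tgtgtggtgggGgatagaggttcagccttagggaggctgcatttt
TRAV4N-4 with TRAJ12: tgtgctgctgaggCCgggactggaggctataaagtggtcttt
TRAV14N-3 with TRAJ22: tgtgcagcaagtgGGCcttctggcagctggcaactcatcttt
TRAV14D-2 with TRAJ22: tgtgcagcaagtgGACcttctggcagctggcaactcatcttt
TRAV7-6 with TRAJ37: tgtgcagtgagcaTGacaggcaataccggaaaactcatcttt
TRAV6-6 with TRAJ22: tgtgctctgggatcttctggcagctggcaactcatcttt
TRAV21-DV12 with TRAJ48, mouse 1: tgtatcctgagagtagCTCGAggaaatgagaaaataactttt
TRAV6-7-DV9 with TRAJ34, mouse 1: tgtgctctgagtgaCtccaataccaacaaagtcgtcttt
TRAV7-4 with TRAJ42, mouse 2: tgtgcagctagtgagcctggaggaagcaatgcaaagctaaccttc

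The J segments of 4 of these chains, from the GRCm38 (mm10) reference on the plus strand of chromosome 14, show how much of CDR3 the germline writes. The capitals here mark the bases that can enter CDR3, and the bases in lower case code for the start of framework 4.
TRAJ18, chr14:54200777-54200842: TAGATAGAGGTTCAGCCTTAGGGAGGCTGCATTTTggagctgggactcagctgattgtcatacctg
TRAJ34, chr14:54184699-54184756: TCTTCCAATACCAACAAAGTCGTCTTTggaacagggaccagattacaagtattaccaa
TRAJ22, chr14:54197248-54197307: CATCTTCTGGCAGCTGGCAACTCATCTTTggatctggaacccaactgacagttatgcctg
TRAJ12, chr14:54206553-54206610: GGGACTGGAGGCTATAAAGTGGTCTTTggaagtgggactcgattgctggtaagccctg

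Nearly the whole alpha locus was in use. The annotated TRAV segments span chr14:52427928-53977678 and the TRAJ segments chr14:54155005-54218842 in GRCm38, and the segments used reached from TRAV1 at the 5-prime end to TRAV21-DV12 and from TRAJ58 to TRAJ2. None of the 20 annotated TRAV pseudogenes was named, which says little, since only productive contigs were counted. One of them, TRAV13-3, was identical over its last 250 bases to TRAV13D-3, which was named. Of the 108 annotated TRAV genes 17 were not found, and 14 of these were identical over their last 250 bases to a segment that was. That is a limit of the V names: the C57BL/6 locus holds large duplicated blocks, marked by D and N in the names, and 20 groups of segments had the same last 250 bases. A clone given to TRAV6-6 could as well carry TRAV6D-6, and one given to TRAV4N-4 could carry TRAV4D-4. Of the 43 TRAJ segments all were found in every library, against 68 of 91 TRAV segments, and 16 TRAV segments were found in fewer than 10 clones. The 8 annotated TRAJ genes that were not found were TRAJ59, TRAJ46, TRAJ41, TRAJ29, TRAJ25, TRAJ20, TRAJ19 and TRAJ3.

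Shares below are percent of V uses, or of J uses, over the clones of a library. TRAV6-7-DV9, at chr14:53709902-53710419 in the 3-prime part of the locus, had the highest mean share, with 6.16% and 6.55% in the lungs of mouse 1 and 2 and 4.44% and 5.99% in the MLN. TRAV7D-2, in the 5-prime part, followed with 3.58% and 4.61% in lung and 5.24% and 4.4% in MLN. TRAV6-6 took 3.88% and 2.91% of lung and 5.16% and 4.16% of MLN V uses. For TRAV6-7-DV9 both lungs lay above both MLN, for TRAV6-6 both lay below, and for TRAV7D-2 the organs overlapped. TRAV9-1 stood at 4.17% and 4.61% in lung and at 2.94% and 4.03% in MLN, and here too both lungs lay above both MLN. TRAV4N-4 stood at 3.58% and 3.88% in lung and at 2.46% and 1.83% in MLN, so that both lungs lay above both MLN. The share of all TRAV segments that separate the organs so was not counted. With 2 libraries against 2 a full separation has an exact permutation p of 0.33 at best. It is thus frequent without an organ difference, and none of these segments was called between organs below. The next 5, TRAV14N-3, TRAV3D-3, TRAV14-2, TRAV14D-2 and TRAV14N-1, had mean shares of 2.48% to 2.92%. Of these TRAV3D-3 varied most, from 1.10% in MLN 2 to 4.85% in lung 2. The top 10 TRAV segments took 32.5% and 39.3% of lung and 33.4% and 32.0% of MLN V uses. The first of them was 7.63 times as frequent as the median segment.

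Summed over families, a share does not depend on the copy named within a family. A family was counted once per clone. TRAV6 led with 17.0% and 15.6% of lung and 14.4% and 15.2% of MLN uses. TRAV7 followed with a mean of 14.9%, TRAV14 with 14.6% and TRAV9 with 10.4%. TRAV13, TRAV12 and TRAV4 had means of 7.52%, 7.37% and 7.22%.

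TRAJ use was flatter. TRAJ37 lies at chr14:54181518-54181577 in the middle of the J cluster. It took 6.37% and 5.87% of lung and 6.11% and 5.89% of MLN J uses, the most even of the frequent segments. TRAJ31 took 5.87% and 5.13% of lung and 5.99% and 5.64% of MLN J uses. TRAJ22 took 5.17% and 7.82% of lung and 4.52% and 4.66% of MLN J uses. Here lung 2 stood apart from the other 3 libraries. TRAJ34, TRAJ23 and TRAJ27 came next with means of 4.51%, 4.16% and 3.93%. TRAJ40, TRAJ43, TRAJ18 and TRAJ42 closed the top 10 with means of 3.45% to 3.59%. The first 7 of the top 10 lie in the middle of the cluster, between TRAJ40 and TRAJ21. The top 10 took 42.6% to 44.7% of J uses in the 4 libraries, and the lowest mean, that of TRAJ35, was 0.335%.

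**Figure D1:**
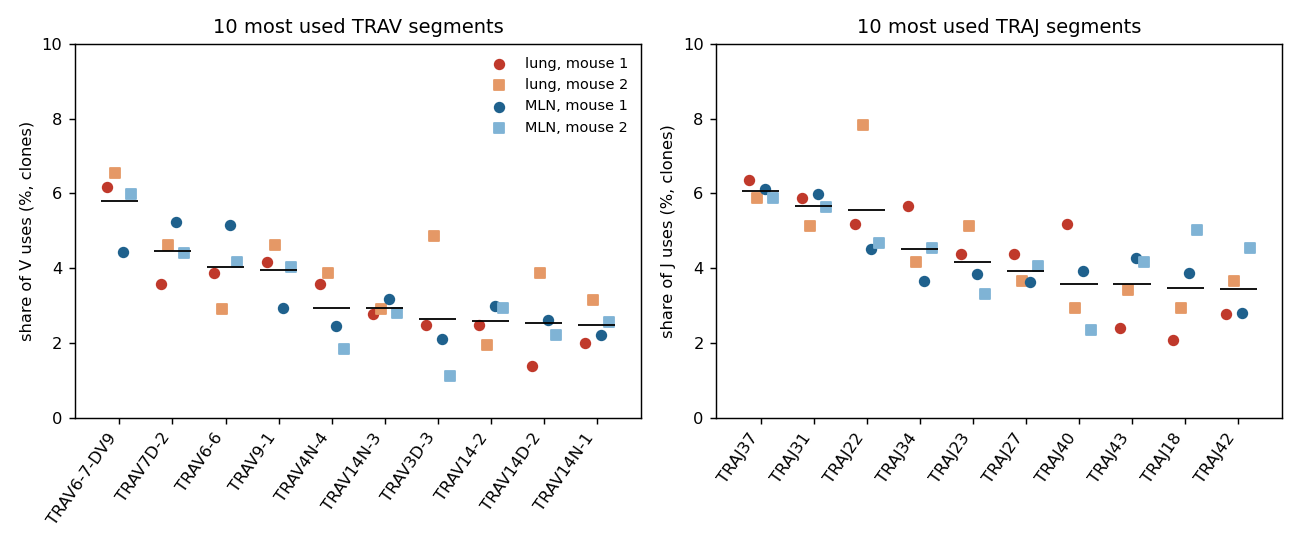
Share of V uses (left panel) and of J uses (right panel) over clones, in percent, for the 10 TRAV and the 10 TRAJ segments with the highest mean share, with 1 point per library and a black line at their mean. TRAV6-7-DV9 led TRAV with 4.44% to 6.55% and TRAJ37 led TRAJ with 5.87% to 6.37%, and lung 2 stood apart at TRAV3D-3 (4.85%) and TRAJ22 (7.82%).

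The libraries were alike in the profile over segments. Pearson's r between any 2 libraries lay between 0.809 and 0.908 over the 91 TRAV and between 0.744 and 0.893 over the 43 TRAJ segments. These points share the locus and, for libraries of the same mouse, some clones. For TRAV the closest libraries were the MLN of both mice, with r = 0.908, and for TRAJ the lung and MLN of mouse 1, with r = 0.893.

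TRAV and TRAJ segments were joined by position. With the V segments numbered from the 5-prime end of the locus and the J segments likewise, Spearman's rho of the V order with the J order over the chains of a library was −0.463 in lung 1 (n = 1007 chains), −0.382 in lung 2 (n = 412), −0.455 in MLN 1 (n = 2479) and −0.388 in MLN 2 (n = 819). The sign says that a V near the J cluster went with a J near the V cluster, and it was the same in all 4 libraries. Chains of a library share cells, depth and mouse, so these values are a description. Over the 1810 chains whose V was less than 98% identical to any other V the value for all libraries was −0.487, and it was −0.439 over all 4572 chains, so it was as large without the near copies. Of the chains with a V from the 3-prime part of the locus, 35.9% had a J from the 5-prime part, TRAJ61 to TRAJ41, and 14.5% one from the 3-prime part, TRAJ20 to TRAJ2. For a V from the 5-prime part these shares were 11.0% and 40.1%, and for a V from the middle 12.4% and 36.5%. By these names the V segments of the middle and of the 5-prime part looked alike, and the 3-prime part differed from both. Many identical copies, such as TRAV4D-4 and TRAV4N-4, have a copy in the 5-prime and a copy in the middle part. TRAV6-6, counted in the 3-prime part, has an identical copy in the 5-prime part, TRAV6D-6. The name cannot place such a chain in either part, and the shares were not redone without them. The likeness of the middle and the 5-prime part can therefore come from the naming.

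Single segments mostly followed this order, and TRAV11 did not. Among TRAV segments with 20 or more chains, TRAV21-DV12, the most 3-prime V in use, had the lowest mean J order. It stood at 10.9 ± 0.903 (SEM over 61 chains) and joined 17 different TRAJ. Chains of both mice are pooled in these means, so the SEM does not measure the spread between mice. TRAV19, TRAV17, TRAV14-3 and TRAV13-4-DV7 came next with means of 14.4, 14.6, 16.7 and 17.2. At the other end of these means TRAV11 stood at 43.1, with TRAJ18 in most of its chains, TRAV9N-3 at 42.6 and TRAV12D-3 at 42.0. TRAV9N-3 and TRAV12D-3 have identical copies, TRAV9D-3 and TRAV12N-3, so their chains can lie in the 5-prime or the middle part. Of the segments without such a copy, TRAV3-1 in the 5-prime part stood at 41.4. TRAV11 is number 93 in the V order and lies in the 3-prime part. Its neighbours there by name, TRAV6-6 and TRAV7-5, stood at 31.5 and 28.9. Some chains named TRAV6-6 may come from its identical copy TRAV6D-6 in the 5-prime part. On the J side, 91.0% of chains with TRAJ58 and 87.1% with TRAJ52, both at the 5-prime end, carried a 3-prime V. At the other end of the cluster this was so for 13.3% of chains with TRAJ5 and 16% with TRAJ2.

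**Figure D2:**
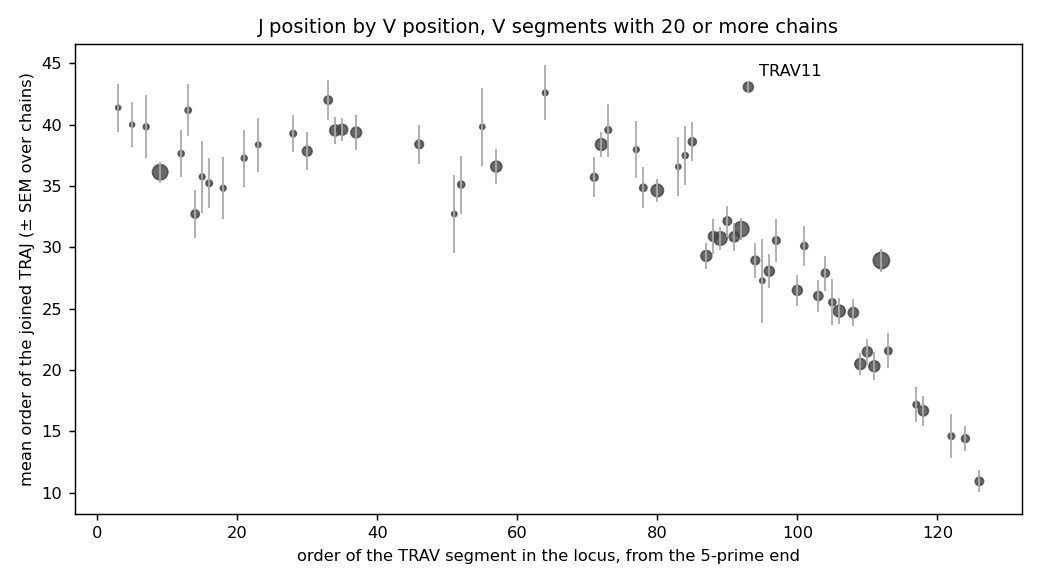
Mean order of the joined TRAJ (vertical axis, counted from the 5-prime end, error bars SEM over chains) by the order of the TRAV in the locus (horizontal axis), for TRAV segments with 20 or more chains. The segments at the 3-prime end of the V locus reach down to TRAV21-DV12 at 10.9, while TRAV3-1 in the 5-prime part stands at 41.4. TRAV11, in the 3-prime part, stands apart from its neighbours at 43.1. Chains of both mice are pooled, so the error bars do not show the spread between mice.

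Between organs, the position groups moved little. Middle J segments took 52.9% and 52.4% of lung and 48.9% and 48.4% of MLN chains, so the groups did not overlap, with a difference of 4.08 percentage points and p = 0.33 in a 2-sided exact permutation test (n = 2 against 2), which is the smallest p that this design can give. The mean J order was 31.7 and 31.6 in lung and 31.7 and 30.8 in MLN (exact permutation p = 0.667). The share of 3-prime V segments was 53.2% and 49.3% in lung and 54.9% and 55.9% in MLN (exact permutation p = 0.33). CDR3 of the alpha chain had a mean length of 13.5 and 13.6 amino acids in lung and of 13.5 in both MLN (exact permutation p = 0.667). Of 12 such values none could pass a threshold of 0.05 at this n.

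The question whether single segments differed between lung and MLN was put to the 75 TRAV and 43 TRAJ segments with 10 or more clones, with edgeR's quasi-likelihood test on clone counts and Benjamini-Hochberg adjustment. Clone sets of the organs of a mouse overlap. The p-values rest on counting error and on the spread between only 2 mice, which edgeR partly pools over segments. No TRAV segment was called (0% of those tested), 7 had an unadjusted p under 0.05, and DESeq2 called 0, with 2 at an unadjusted p under 0.05. With the mouse as replicate block, edgeR called TRAV6-5 and TRAV11. TRAV6-5 took 2.49% and 2.18% of lung and 0.968% and 0.856% of MLN V uses, in 25, 9, 24 and 7 clones. Both lungs were above both MLN, by a log2 fold change of 1.34 ± 0.41 (SE, edgeR adjusted p = 0.0999), and with the replicate block the adjusted p was 0.0135. TRAV11 took 0.497% and 1.94% of lung and 2.22% and 2.57% of MLN V uses. Lung 1 with 5 clones stood far below the other 3 libraries, and the log2 fold change was −1.31 ± 0.44 (SE, edgeR adjusted p = 0.139, with the replicate block 0.0198). TRAV13N-4 was found in 0 lung clones and in 5 clones of each MLN (edgeR adjusted p = 0.236). TRAV1, the V of MAIT cells, was found in 1 and 1 lung clones and in 8 and 1 MLN clones.

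No TRAJ segment was called either (0%), with 2 at an unadjusted p under 0.05 in edgeR and 0 in DESeq2, and 0 with the replicate block. The smallest p belonged to TRAJ18, with 2.09% and 2.93% of lung and 3.87% and 5.03% of MLN J uses. Both lungs lay below both MLN, with a log2 fold change of −0.85 ± 0.25 (SE) and an edgeR adjusted p of 0.442, or 0.0564 with the replicate block. TRAJ43 was lower in lung by the same measure, with 2.39% and 3.42% against 4.28% and 4.17% (edgeR adjusted p = 0.442). TRAJ22 had an edgeR adjusted p of 0.754. TRAJ33, the J of MAIT cells, took 2.04% to 2.58% of J uses in all 4 libraries. TRAV1 with TRAJ33 was found in 1 clone, in MLN 1.

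Of the 89 clones with TRAV11 76 joined it to TRAJ18, while 168 clones held TRAJ18, most of them with another V. TRAV11 with TRAJ18 was found in 3 of 885 clones of lung 1 (0.339%, exact 95% binomial interval 0.0700% to 0.987%), 8 of 375 of lung 2 (2.13%), 45 of 2080 of MLN 1 (2.16%) and 20 of 713 of MLN 2 (2.81%). The interval covers counting error only. Cells with this chain differed in transcripts from the rest: Zbtb16, the transcription factor of NKT cells, had a UMI in 51 of 76 of them (67.1%) and in 0.662% or less of the other cells of a library, and Cd4 had a UMI in 44.7% against 74.0% to 78.5%. Of the other NKT cell markers, Klrb1c had a UMI in 27.6% of the cells with this chain, Klrk1 in 7.89% and Klrd1 in 5.26%. In the other cells of a library Klrk1 was in 0.980% or less and Klrd1 in 0.245% or less. Of the gamma delta T cell markers, Tcrg-C1 had a UMI in 34.2% of the cells with this chain, Tcrg-C4 in 25% and Tcrg-C2 in 14.5%. Each of these was in 0.834% or less of the other cells. Trdc was in none of the cells with this chain and in 0.455% or less of the others. Summed NKT cell markers stood at 2.70 and 18.6 CPM in lung and at 16.9 and 21.4 CPM in MLN. This was the same order of libraries as the clone share but for lung 2 and MLN 1. Klrb1c made up 9.23 and 12.1 CPM of the MLN sums, and it was also in 3.43% and 4.09% of the other MLN cells. Leaving out the cells with TRAV11 and TRAJ18 removed 76 of the 89 clones with TRAV11, all of them single. edgeR then called 0 TRAV and 0 TRAJ segments between organs, as it did with them, and 0 between expanded and single clones. TRAV11 in the latter stood at −0.85 (edgeR adjusted p = 0.924). With most of its clones removed, this fit cannot test TRAV11.

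Segments of expanded clones were compared with those of single clones of the same mice, the question being whether some segments are favoured in cells that had divided and been sampled more than once. One TRAV segment was called, 1.33% of those tested. TRAV11 was found in 1 of the expanded clones of mouse 1 and in 0 of mouse 2 (0.196% and 0% of V uses), against 59 and 29 single clones (2.07% and 2.60%). It was lower among expanded clones in both mice, with a fitted log2 fold change of −3.67 ± 0.75 (SE, edgeR adjusted p = 0.00170), a fold that depends on the prior count since expanded clones held so few. The adjusted p was 0.0387 with the replicate block and 0.363 in DESeq2. It was 0.185 when all barcodes with both chains were used and 0.744 with lung cells alone. Without mouse 1 among the expanded clones it was 0.859, and without mouse 1 among the single clones 0.0855. No expanded clone of 454 in mouse 1 and of 83 in mouse 2 carried TRAV11 with TRAJ18, which allows shares of up to 0.661% and 3.61%, beside 2.00% and 2.85% of single clones.

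None of the TRAJ segments was called between expanded and single clones (0%), with 1 at an unadjusted p under 0.05 in edgeR and 0 in DESeq2. This was TRAJ18, with 8 and 1 expanded against 107 and 52 single clones (log2 fold change −1.44 ± 0.33, SE, edgeR adjusted p = 0.345), and it was called with MLN cells alone. Of these single clones 48 and 28 carried TRAV11 with TRAJ18, and no expanded clone did, so TRAJ18 and TRAV11 are partly the same clones. TRAJ44 and TRAJ2 followed with an edgeR adjusted p of 0.901. The position groups did not separate expanded from single clones: 5-prime J segments took 20.2% and 34.1% of expanded and 25.1% and 25.7% of single chains (exact permutation p = 1), and the mice lay on opposite sides.

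**Figure D3:**
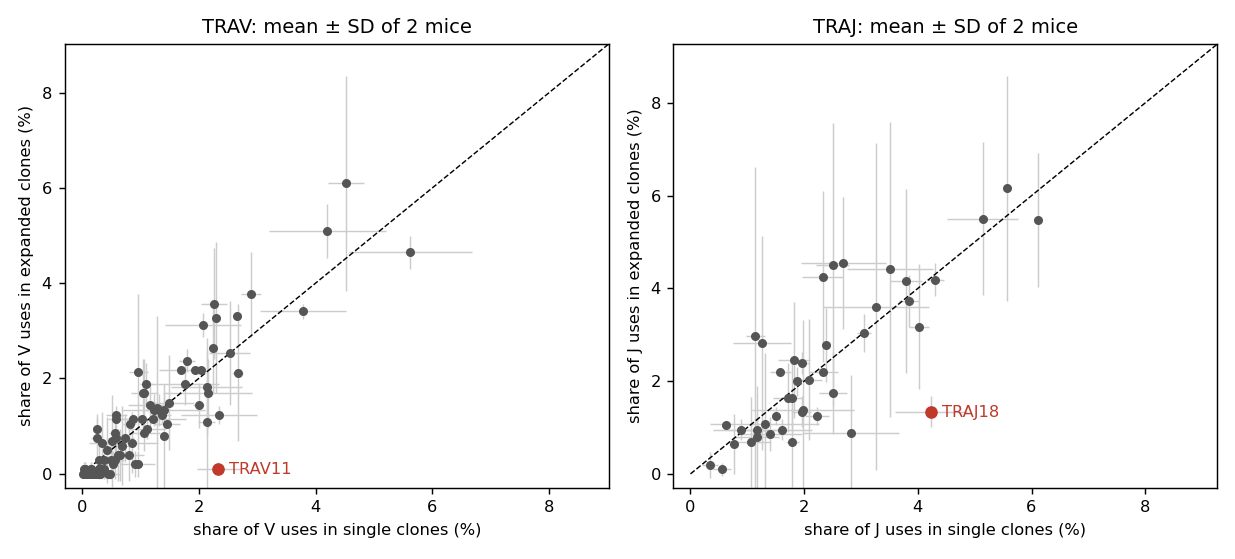
Share of V uses (left) and J uses (right) in expanded clones (vertical axis, percent) against single clones (horizontal axis, percent), as mean ± SD of 2 mice, with 1 point per segment and the line of equal shares. TRAV11 lies far below the line, with 0.196% and 0% in expanded clones of the mice against 2.07% and 2.60% in single clones. TRAJ18 lies below the line too, and 48 and 28 of its single clones carried TRAV11 with TRAJ18.

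Clone size moved the share of a segment when cells were counted in place of clones. Over all TRAV segments, uses counted by cell were 1.19 times the uses counted by clone. TRAV13D-2 gained most, from 2.36% of V uses by clone to 2.75% by cell, with 18 of 108 clones expanded and 8 cells in its largest. TRAV13D-2 with TRAJ22 was found in 14 clones, 11 of them with TRBV1 (78.6%, against 7.97% of the other clones). TRAV7-4, TRAV14N-3, TRAV21-DV12 and TRAV9N-4 gained 0.165 to 0.179 percentage points. For TRAV21-DV12 and TRAV14N-3 a single clone stood behind most of this: the clone of 15 cells in mouse 1 with 5 cells in lung and 10 in MLN, and a clone of 11 cells, all in lung 1, whose TRAV14N-3 with TRAJ22 chain is printed above. TRAV7-4 gained by the largest clone of mouse 2, with 7 cells in lung and 2 in MLN. TRAV11 lost most, 0.296 percentage points, at 1.01 cells per clone, and TRAV9-4, TRAV12D-2, TRAV9-2 and TRAV14N-1 lost 0.106 to 0.220. Of TRAJ segments TRAJ22, TRAJ34, TRAJ31, TRAJ48 and TRAJ40 gained 0.182 to 0.277 points, where the clone of 15 cells carried both TRAJ34 and TRAJ48. TRAJ18 lost 0.395 points, and TRAJ43, TRAJ44, TRAJ52 and TRAJ39 lost 0.115 to 0.151.

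Of 3913 possible pairs of the TRAV and TRAJ in use 1644 were found (42.0%), 725 of them in 1 clone, and 75 in all 4 libraries. TRAV11 with TRAJ18 led with 76 clones, 23.2 times the number that the product of the segments' shares gives. TRAV6-6 with TRAJ31 came next with 24 clones, then TRAV14N-3 with TRAJ31 with 23, and TRAV6-6 with TRAJ22 and TRAV9-1 with TRAJ31 with 22 each. TRAV9-1 with TRAJ34 had 21, TRAV4N-4 with TRAJ12 had 19, TRAV14D-2 with TRAJ22 and TRAV6-7-DV9 with TRAJ43 had 17 each, and TRAV7-6 with TRAJ37 had 16. Against the product of shares, TRAV7-6 with TRAJ37 stood at 5.44 and TRAV4N-4 with TRAJ12 at 5.00, above the other 7 of these pairs, which stood at 1.88 to 3.29. The product takes no account of the order of the locus.

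Some of these pairs were found mostly in lung. The fit over the 57 pairs whose library counts summed to 10 or more was chosen after the pairs had been seen. It called 1 pair between lung and MLN (1.75%), TRAV6-5 with TRAJ34, with 9 and 1 clones in lung and 2 and 1 in MLN, or 1.02% and 0.267% against 0.0962% and 0.140% of clones. Both lungs were above both MLN, but lung 1 alone was far above the rest (log2 fold change 2.82 ± 0.76, SE, edgeR adjusted p = 0.0283). TRAV9-1 with TRAJ34 had 13 and 4 clones in lung and 5 and 0 in MLN, or 1.47% and 1.07% against 0.240% and 0% (edgeR adjusted p = 0.0629, with the replicate block 0.000232). TRAV4N-4 with TRAJ12 had 12 and 2 clones in lung and 4 and 1 in MLN, or 1.36% and 0.533% against 0.192% and 0.140% (edgeR adjusted p = 0.0629, with the replicate block 0.00210). TRAV3D-3 with TRAJ5 had 4 and 5 clones in lung and 2 in each MLN (edgeR adjusted p = 0.0629). Each of these 4 pairs had fewer than 10 clones in MLN and reached the minimum only with its lung clones. The filter thus let them in for being frequent in lung, and their p-values are a description and not a test. Unadjusted, 5 pairs had a p under 0.05 in edgeR and 0 in DESeq2, which called 0 pairs, and edgeR called 0 pairs without MLN 1 or without MLN 2. Without lung 1 it also called 0, but none of these 4 pairs had enough clones to be tested there, so that fit does not bear on them.

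**Figure D4:**
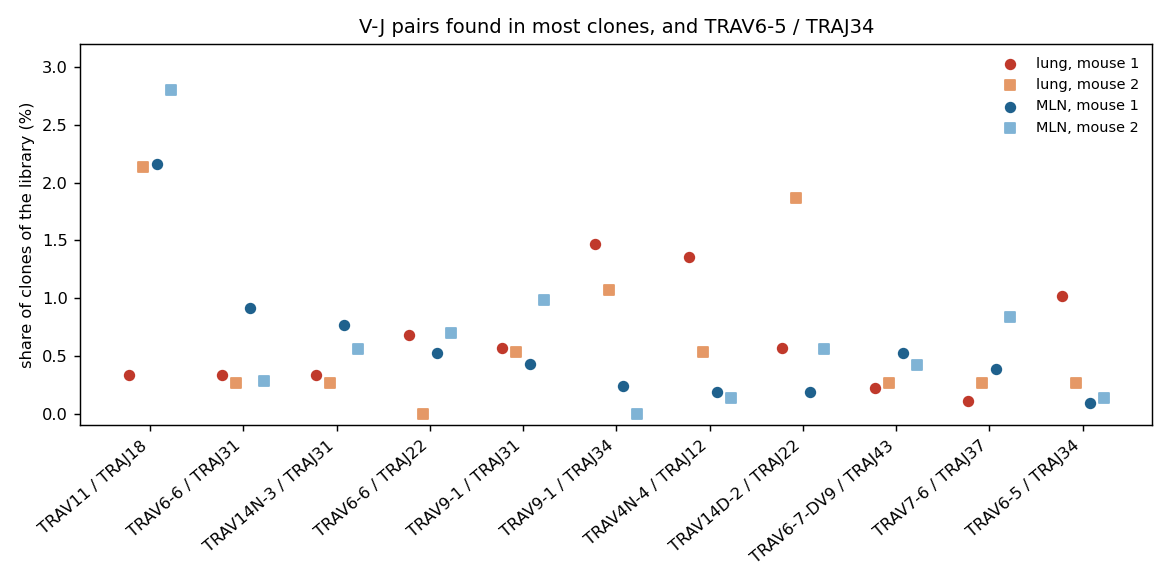
Share of the clones of a library, in percent, for the V and J pairs found in most clones and for TRAV6-5 with TRAJ34, with 1 point per library. TRAV11 with TRAJ18 reaches 2.81% in MLN 2 and is at 0.339% in lung 1, while TRAV9-1 with TRAJ34 stands at 1.47% and 1.07% in lung and at 0.240% and 0% in MLN.

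Some of the pairs seen mostly in lung had narrow TRB partners. TRAV3D-3 with TRAJ5 was less narrow, with TRBV26 in 5 of its 12 clones (41.7%, against 4.34% of the other clones). Of the 19 clones with TRAV4N-4 and TRAJ12, 14 carried TRBV13-3 (73.7%, against 7.98% of the other clones), 13 of them with TRBJ2-4 (68.4% against 0.870%). Of the 21 clones with TRAV9-1 and TRAJ34, 14 carried TRBV1 (66.7% against 7.91%). TRBV1 was also in 9 of the 12 clones with TRAV6-5 and TRAJ34 (75.0% against 8.02%), and no clone held both of these alpha chains. The clones of a pair mostly had TRB chains of their own, with 23 distinct TRB chains by mouse among the 24 of TRAV9-1 with TRAJ34, 17 among the 20 of TRAV4N-4 with TRAJ12 and 11 among the 13 of TRAV6-5 with TRAJ34. Pairs of both organs had such partners too: TRBV5 was in 13 of 17 clones with TRAV6-7-DV9 and TRAJ43 (76.5% against 10.1%) and TRBV19 in 12 of 22 with TRAV6-6 and TRAJ22 (54.5% against 6.68%). The partner named is the most frequent of each pair and so was picked from the data, and no test was made of it. TRAV11 with TRAJ18 carried TRBV13-2 in 33 of 76 clones (43.4% against 13.1%).

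At the bases, the TRAV4N-4 with TRAJ12 chain printed above was read in 7 clones and 9 cells, all from lung, 6 of the clones in mouse 1 and 1 in mouse 2, and its 7 TRB chains all differed but all joined TRBV13-3 to TRBJ2-4. It holds 2 bases, CC, from neither segment, unlike the TRAV6-6 with TRAJ22 chain, which is germline throughout. The TRAV14D-2 with TRAJ22 chain was read in 3 clones, all from lung and all with TRBV5 and TRBJ1-6. The TRAV14N-3 with TRAJ22 chain differs from it in the added bases, GGC in place of GAC, and was read in 14 cells, 11 from lung 1 and 3 from lung 2. Neither MLN held any of these 3 chains, and the chains were picked after their cells had been seen. The TRAV7-6 with TRAJ37 chain was read in 6 clones, of which 5 held MLN cells, and the TRAV6-6 with TRAJ22 chain in 5 clones.

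Over all 4068 distinct alpha chains the median number of bases from neither segment was 3, and 488 chains (12%) had 0. There were 62 chains (1.52%) with the same V, J and CDR3 bases in both mice, and these had a median of 1 such base and 33.9% with 0. Without TRAV11 with TRAJ18, 58 chains with a median of 2 and 32.8% with 0 remained. All 62 chains together joined 29 TRAV to 27 TRAJ segments, and 27 of them were read in both organs, 8 in lung alone and 27 in MLN alone. Whole clones with the same alpha and beta chains in both mice numbered 2, with 5 cells. Rag1 and Rag2, which cut the segments for joining, Dntt, which adds bases at the join, and Ptcra, the surrogate alpha chain of thymocytes, had 0 UMIs in all 4 libraries.

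The annotated CDR3 end of TRAJ44 bears on any length taken from these tables. CDR3 usually ends on phenylalanine or tryptophan, and 36 of 43 TRAJ segments did so in over 95% of chains. TRAJ7 did so in 8% of its chains, since 69 of 75 ended on leucine. None of the 99 TRAJ44 chains did. In 68 of them CDR3 stopped early, at the ACT codon at the start of the segment, with a mean length of 6.12 amino acids, and in 31 at the leucine codon further on, with 13.7. The capitals mark the bases between the early and the late end.
TRAJ44, chr14:54173690-54173750: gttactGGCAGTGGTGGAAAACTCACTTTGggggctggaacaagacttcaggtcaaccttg
The mean CDR3 length of TRAJ44 was 8.48, outside the range of the other segments, 12.3 to 15.4. Without TRAJ44 the mean was 13.6 ± 1.32 (SD over chains). Of the 62 chains found in both mice 4 used TRAJ44.

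The same cells' RNA libraries carry the transcripts of the segments, and these were read as a measure that the clone counts did not use. In cells with a contig of a given V the gene of that V had a UMI in 69.3% of cells, against 0.649% of the other cells, with a median over segments of 98.5%. For 61 of 91 TRAV segments it was above 90%. For 22 it was below 25%, and 19 of these were identical over their last 250 bases to another annotated V. TRAV6-6 stood at 0.403%, TRAV4N-4 at 1.40%, TRAV11 at 12.2% and TRAV7D-2 at 23.4%. For TRAJ genes the share was 5.87% against 0.0801%.

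Transcripts of the V genes were lower in lung on the CPM scale. Summed Trav transcripts stood at 607 and 633 CPM in lung and at 1029 and 1085 CPM in MLN. Both lungs were far below both MLN. Trac, the constant alpha gene, stood at 198 and 207 CPM in lung and at 336 and 380 CPM in MLN (log2 fold change −0.69 ± 0.12, SE, edgeR adjusted p = 0.00232). The ratio of Trav to Trac was 3.07, 3.06, 3.06 and 2.85, so the organs hardly differed in it. In edgeR on summed UMIs 24 of 63 tested Trav genes were called, 1 higher and 23 lower in lung, beside 30.6% of all 10687 genes called, 16.7% higher and 13.9% lower. The median log2 fold change over Trav genes was −0.81, against −0.01 over all genes. Neither of the 2 Traj genes tested, Traj31 and Traj34, was called. Trac had a UMI in 71.0% and 69.7% of lung cells and in 77.7% and 78.0% of MLN cells. CPM divides by all RNA UMIs. In cells without TRAV11 with TRAJ18 their median per cell was 6913 and 5766 in lung and 4981 and 4984 in MLN. Before scaling, Trac had 1681 UMIs in the 1082 cells of lung 1 and 578 in the 416 cells of lung 2. In MLN 1 it had 4881 UMIs in 2462 cells and in MLN 2 1702 in 754 cells. Fewer cells with a transcript, less of it per cell and a larger total can each lower a CPM value. The lower UMIs per TRA contig in lung moved with these values, and the part of each was not tested.

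The other receptor genes moved in the same direction but not all. Trbc1 and Trbc2, the constant beta genes, were lower in lung by log2 fold changes of −0.59 and −0.69 (edgeR adjusted p = 0.0291 and 0.0214). Cd3d and Cd247, signalling chains of the receptor, were at −0.57 and −0.45 (edgeR adjusted p = 0.0129 and 0.0178). Cd3e was at −0.24 and Cd3g at 0.00, and neither was called (edgeR adjusted p = 0.168 and 0.994). Without MLN 2, the calls for Trbc1, Trbc2, Cd3d and Cd247 were lost in edgeR, with adjusted p of 0.280, 0.237, 0.0692 and 0.0906. Those for Trbc1 and Trbc2 were also lost without lung 1 (edgeR adjusted p = 0.0526 and 0.0505), and those for Cd3d and Cd247 without MLN 1 (edgeR adjusted p = 0.134 and 0.202).

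Against this shift, Trav6-5 went up. It stood at 21.6 and 22.2 CPM in lung and at 11.6 and 12.5 CPM in MLN, the one Trav gene called higher in lung (log2 fold change 1.01 ± 0.17, SE, edgeR adjusted p = 0.00206), and its clone share was higher in both lungs as given above. Clones and transcripts come from the same cells, so this is a second reading of them and not a second sample. Trav14-1 stood at 4.3 and 6.8 CPM in lung against 25.9 and 25 CPM in MLN (log2 fold change −2.16, edgeR adjusted p = 9.43e-05). Its shares of V uses over clones were 0.895% and 0.485% against 1.21% and 1.34%. Trav7-6 stood at 4.7 and 5.4 CPM against 20.1 and 29.7 CPM (log2 fold change −2.14, edgeR adjusted p = 0.000339). Trav17 had the lowest value, −2.43 (edgeR adjusted p = 0.00669).

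**Figure D5:**
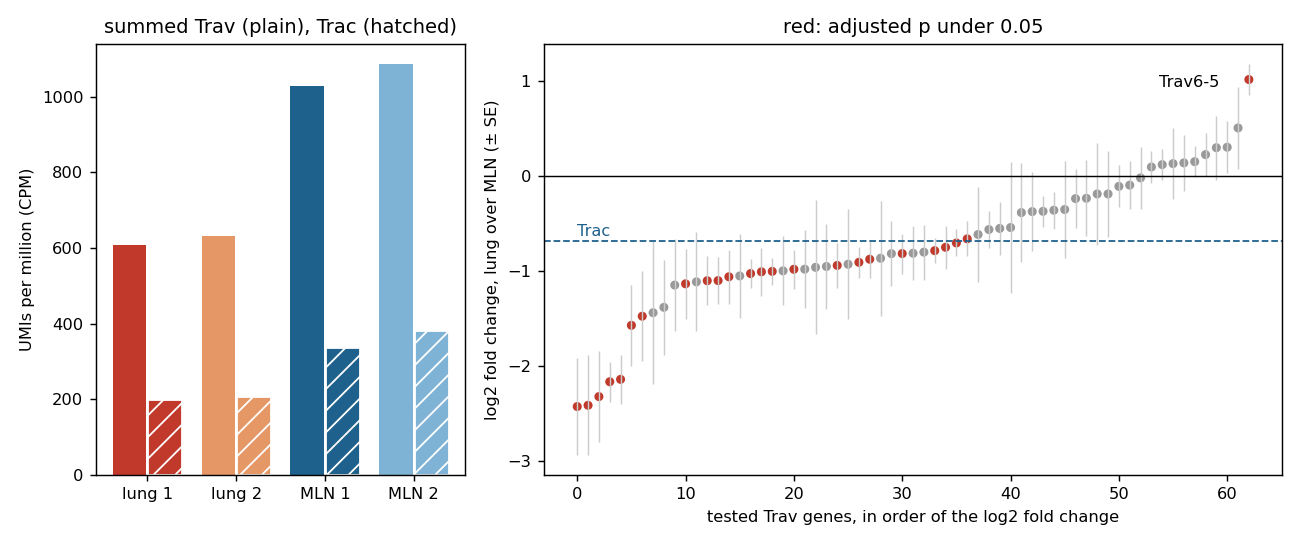
Left, summed Trav transcripts (plain bars) and Trac (hatched bars) in CPM for the 4 libraries. Right, log2 fold change of lung over MLN with its SE for the 63 tested Trav genes in order of size, where 24 called by edgeR are red, the dashed line is the value of Trac, and Trav6-5 is the one of them above 0.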

How the data were processed

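The TCR tables were deposited by the authors as text fields per contig (V, J, chain, CDR3 bases) with UMI counts, and the RNA tables as whole UMI counts per gene and cell. Per the labels and the study's methods, reads were processed with Cell Ranger (2.1.1 to make reads, 3.0.1 for TCR) on mm10, and the authors combined 2 RNA sequencing runs before depositing. The filters of the study on RNA (a minimum of 500 for both UMIs and genes, a mitochondrial share of less than 7%, and a novelty, log10 genes divided by log10 UMIs, above 0.8) kept 5938 of 6319 barcodes, of which 4714 had a productive TRA and TRB. No doublet caller was run here. RNA UMIs summed over these cells were 8507249, 2798232, 14512767 and 4477888 in lung 1, lung 2, MLN 1 and MLN 2.

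Clone counts per segment were compared with edgeR 4.0.16 (quasi-likelihood, library totals as size, 10 or more clones, adjusted p under 0.05) and RNA counts with TMM scaling and edgeR's expression filter, in R 4.3.3. DESeq2 1.42.0 was an alternative. The fits were tested on simulated data, in which segment counts had counting error alone, without spread between mice or clones shared between organs. Single values were compared by exact permutation tests. Same-numbered libraries come from the same mouse. Deviations of same-numbered libraries correlated at r = 0.0218 for TRAV and 0.457 for TRAJ between organs. They correlated at 0.156 and 0.256 between expanded and single clones, and at 0.0410 for RNA. Fits with the mouse as replicate block are therefore given where they change a call, for Trav genes as a number with examples. Unmatched bases were found by matching CDR3 to the last 40 bases of V and to J of GRCm38. The segments named were the 10 TRAV and TRAJ of highest mean share, the called or 3 of smallest p in each comparison, the 5 of largest gain or loss with cells counted, the 10 commonest pairs, and TRAV11, TRAJ18, TRAV1 and TRAJ33, and the others named in the text were picked after their values were seen. Members, lists and tests were chosen with earlier results of these data known. RNA libraries of medLN and MLN from another set of mice were not used here.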

Additional observations from a re-analysis of the deposited data

Results flagged for a closer look

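In 2 of 27 named segments the difference between expanded and single clones lay on opposite sides in the organs, for every library. Only the named segments were screened for this, so no share over all segments can be set beside the count. Signs that fall at random give such patterns too. It was not tested, and with 2 libraries per organ it is a description. TRAV14N-1 differed by 0.114 and 0.961 percentage points in lung 1 and lung 2 and by −1.12 and −1.09 in MLN 1 and MLN 2, expanded minus single. TRAV3D-3 differed by −1.09 and −0.972 in lung and by 0.236 and 2.20 in MLN.

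Contigs that the counting rule leaves out held segment data as well. TRDV segments joined to a TRAJ on a TRA contig were read in 5 lung cells of mouse 1, in 20 and 10 MLN cells of mouse 1 and 2, and in 0 lung cells of mouse 2, where 0 of 624 cells allows a share of up to 0.481%. Over all barcodes, those outside the RNA filters included, there were 36 such contigs. TRDV1 was in 23 of them, TRDV2-2 in 12 and TRDV5 in 1, and 29 used a 5-prime TRAJ, 7 a middle one and 0 a 3-prime one. Full-length non-productive TRA contigs numbered 184, 64, 449 and 121 in lung 1, lung 2, MLN 1 and MLN 2. The V order and the J order of these were again negatively related, with Spearman's rho of −0.350, −0.517, −0.302 and −0.400, and 1 of the 818 joined TRAV11 to TRAJ18. The cells of a library are shared by both kinds of contig.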

How the results depend on the processing

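The number of TRAV segments called between lung and MLN was 0 in all settings but the replicate block, which gave 2, and TRAJ calls were 0 in all. TRAV11 was the 1 TRAV segment called between expanded and single clones, and 0 were called by DESeq2, with all barcodes, without TRAV11 with TRAJ18, with a minimum of 3 cells for expanded clones and with lung cells alone. Contigs of over 1 UMI with a CDR3 of over 5 amino acids gave 2 calls, and 2 came from the TRA contig with the most UMIs. Leaving out a replicate gave 0 to 1. TRAJ calls between expanded and single clones were 0, and 1 with MLN cells alone. Pairs called numbered 1, with DESeq2 0, with the replicate block 3 and with a library left out 0 to 3. The Trav and Traj genes called numbered 24, with the replicate block 34, with DESeq2 17 and with a library left out 18 to 31. For clones and pairs the replicate block changed no other call than those given. Among the Trav genes that it added were Trav1, Trav13n-4 and Trav6-7-dv9, all lower in lung. Their edgeR adjusted p was 0.0289, 0.0348 and 0.0441 with the block and 0.178, 0.103 and 0.115 without it.

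Of the values that turned in sign, TRAJ33 in lung against MLN (log2 fold change 0.03) was −0.19 with the stricter contigs and −0.0501 with all barcodes, and up to 0.15 with a library left out. Expanded against single it was −0.21 to 0.0147, and Cd3g in lung against MLN −0.14 to 0.13, with a replicate left out. Expanded minus single, mean CDR3 length (−0.00618 amino acids) was 0.0296 with cells counted, 0.0419 with stricter contigs and 0.0264 without TRAV11 with TRAJ18, and −0.115 to 0.102 with a replicate left out. Mean J order was 0.0955 without TRAV11 with TRAJ18, 0.0383 with all barcodes and −0.936 to 0.563 with a replicate left out. The share of 3-prime V was 1.25 with stricter contigs. Middle J was −1.02 with stricter contigs, −0.807 without TRAV11 with TRAJ18, −0.137 with all barcodes and −4.51 to 5.03 with a replicate left out. 5-prime J ranged from −5.24 to 8.67 and 3-prime J from −4.16 to 0.209 so. Lung minus MLN, the mean J order ranged from −0.0355 to 0.911. The causes were not tested.

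With 2 mice, 1 infection day and no uninfected animal, no test here reaches beyond these animals. Lung 2, with 375 clones, limits what a share can show, and V names are uncertain among identical copies.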

Other observations

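In 600 clones with exactly 2 alpha chains the 2 J segments lay a median of 7 positions apart, and 60.3% of these clones had both J in the same part of the cluster, against 37.2% from the product of the shares. The TRAJ shares of the non-productive contigs had a Pearson r of 0.689 with those of the productive ones over 43 segments, and the TRAV shares 0.549, where both kinds come from the same libraries. TRAJ31 was the most frequent TRAJ among the non-productive contigs with 8.07%.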
